A study of Canis lupus familiaris with 8 samples.

Results

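The miRNAs described here carry murine names with numbers from 2000 to 3999. They entered the miRNA registry late, many of them from deep sequencing of mouse tissues. Of the 1224 miRNA names analysed on the array, 145 fell in this range by their number alone, whatever their letter, arm or star. They made up 145 of the 935 murine names, and 289 further names were canine. The 145 are called later-numbered below, although the other murine names also include higher numbers, such as mmu-miR-5126. The 145 names covered 88 hairpins when letters and copy numbers were counted apart, and 55 of these hairpins had more than 1 name.

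Serum RNA of 8 Doberman Pinschers was measured with 8 one-colour arrays, all from the same slide. The 4 arrays labelled DoCM5 to DoCM8 came from dogs with dilated cardiomyopathy (DCM), a disease of the heart muscle that was in its occult stage. The 4 arrays labelled Con1 to Con4 came from healthy dogs. All were client-owned adults, and the labels give an age of 7 to 11 years for both groups, although the study describes one DCM dog as young. Both sexes were present in both groups. The study describes heart medication (pimobendan, an ACE inhibitor, sotalol or amiodarone) for all dogs with DCM and names none for the controls, so that disease and therapy cannot be told apart. All DCM arrays shared a slide row and all control arrays shared the next, so that slide row and group cannot be told apart either. The array was designed on mouse and dog sequences. Which RNA gave the signal of a murine name in dog serum was not tested.

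A miRNA is a short RNA cut from a hairpin precursor. Loaded onto an Argonaute protein, it guides the repression of messenger RNAs. The hairpin can release a mature strand from each arm, and a star, 3p or 5p at the end of a name marks the arm. Serum miRNAs come from blood cells, platelets and solid tissues and are carried by proteins and vesicles. miR-2861 and miR-3960 are neighbours in one mouse cluster and are known from osteoblast differentiation, where miR-2861 represses the histone deacetylase HDAC5 and miR-3960 represses the homeobox factor Hoxa2. miR-3107 lies on the strand opposite miR-486, which is abundant in red blood cells, and was later renamed as a second copy of it. miR-3074 and miR-3065 lie opposite miR-24 and miR-338 in the same way. miR-3070, miR-3071 and miR-3072 belong to the large imprinted Dlk1-Dio3 miRNA region.

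Each name was covered by 40 features, and the scanner software marked each feature as well above background or not. The number of features well above background ranged from 10817 to 14000 per array of 48960, and no feature was saturated. The study left the sample it calls DoCM8 out of its comparison, and the array with that label is left out of the main comparison here. In the values here, however, the array labelled DoCM5 stood apart and was the brightest. The study calls the signals of the sample it dropped intensified, so the numbers in the labels may not match its own, and that sample may be another than DoCM8. The main counts and differences are therefore given without DoCM8, with all 8 arrays and without DoCM5. The labels name separate dogs, and 1 array was made from each.

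Most of the later-numbered murine names gave no usable signal in canine serum. A feature was kept when 2 or more of the 4 arrays in either group showed it well above background, and a name was counted as detected with 1 kept feature. By this rule 41 of the 145 names were detected (28.3%). The share was 30.5% among the other murine names (241 of 790) and 54.0% among the canine names (156 of 289). Of the 104 names without a kept feature, 35 had no feature well above background on any array. The other 69 had a median of 2 such feature calls among the 320 possible, and the highest number was 30, for mmu-miR-3096b-3p. All 30 lay on Con3, so that most of the 40 features of this name gave signal on that array although none was kept.

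The detected names fell into a firm and a weak set. All 40 features were kept for 25 names, 16 names had between 1 and 39 kept features, and 3 of these rested on a single feature. A call on an array required that 50% or more of the features of a name were well above background there, leaving out features that the scanner software marked as outliers on that array. The same number of names, 25, was called on all 8 arrays, and 107 were called on none. With the outlier features counted, 26 were called on all 8 arrays, mmu-miR-3968 being the further one, and again 107 on none. The number called per array was 28 on DoCM5, 33 on DoCM6, 25 on DoCM7, 28 on DoCM8, 30 on Con1, 28 on Con2, 37 on Con3 and 29 on Con4. Con3 and DoCM6 held the most, DoCM7 held the fewest, and the groups overlapped throughout. The other murine names had nearly the same shares and order, with 24.2% called on Con3, 21.6% on DoCM6 and 17.2% on DoCM7, compared with 25.5%, 22.8% and 17.2% of the later-numbered names. No name was called on all 4 arrays of one group and on none of the other.

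**Figure D1:**
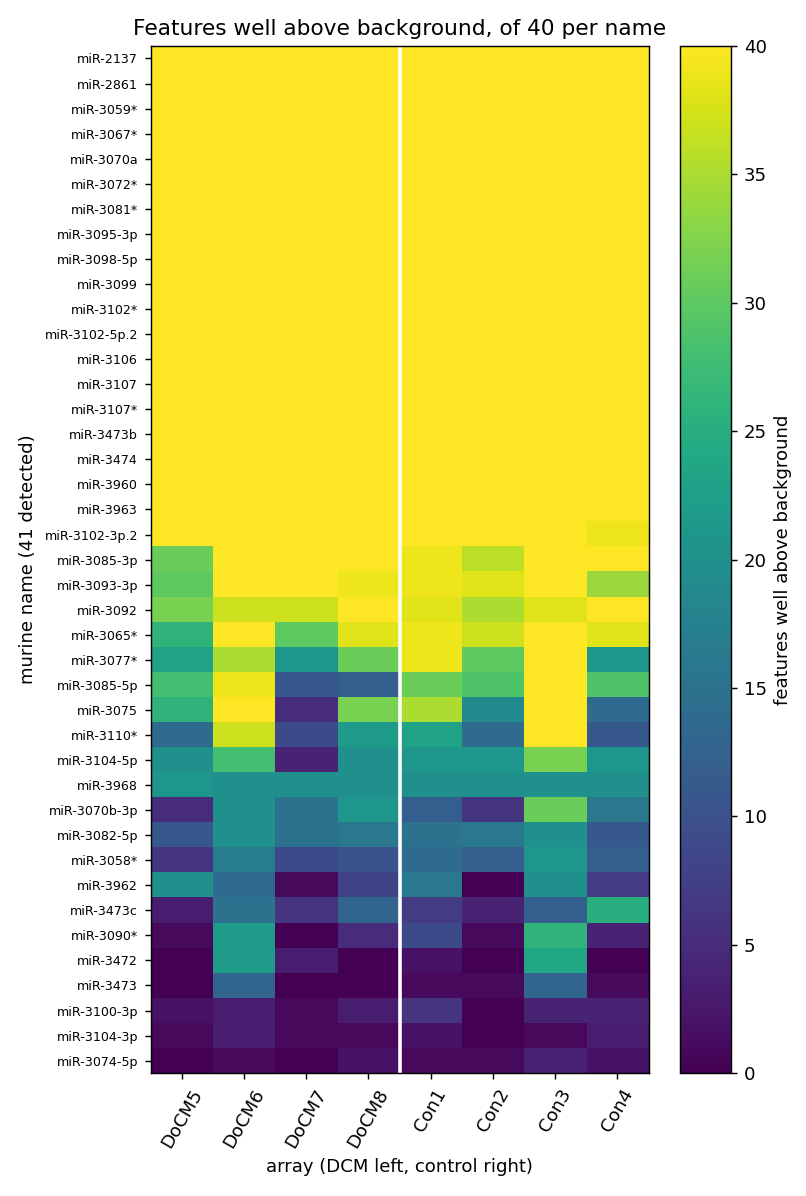
Number of the 40 features of a name that were well above background on each array (columns, DCM left of the white line and control right of it), for the 41 detected names (rows), ordered by their total. The upper rows are at or near 40 on all 8 arrays, and the lowest rows, such as miR-3104-3p and miR-3074-5p, hold only a few such features on any array.

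Among the 55 hairpins with several names, 4 had more than 1 name detected (miR-3085, miR-3102, miR-3104 and miR-3107) and 19 had one. For miR-3104, the 3p name rested on 1 kept feature. Since only 28.3% of the 145 names were detected at all, nothing about the arms is read from these counts. Hairpins of the other murine and canine names were not counted. Star names were detected in 11 of 34 cases (32.4%), 3p names in 7 of 25 (28%), 5p names in 6 of 24 (25%) and names without an arm in 17 of 62 (27.4%). Of the Dlk1-Dio3 names, mmu-miR-3072* and mmu-miR-3070a were called on all 8 arrays, while mmu-miR-3072 and mmu-miR-3071 had no feature well above background on any array. mmu-miR-3070b-3p, detected through 32 features, was called on 1 array, or on 3 with the outlier features counted.

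miR-2861 and miR-3960 were among the strongest signals of these names, and all 40 features of each were well above background on every array. The mean signal of mmu-miR-2861 before normalization was 1504 on DoCM5, 2791 on DoCM6, 1506 on DoCM7, 2991 on DoCM8, 3599 on Con1, 1570 on Con2, 2827 on Con3 and 2060 on Con4. DoCM5, DoCM7 and Con2 were low and the other arrays lay above them in both groups. These signals were 186 to 479 times the lowest signal well above background on the same array. The signal of mmu-miR-3960 was 2122 on DoCM5, 4106 on DoCM6, 1606 on DoCM7, 3458 on DoCM8, 4149 on Con1, 2230 on Con2, 4027 on Con3 and 2061 on Con4, or 247 to 661 times that lowest signal. The highest array exceeded the lowest 2.39-fold for mmu-miR-2861 and 2.58-fold for mmu-miR-3960. Single features of one probe agreed closely on an array, with a coefficient of variation of 1.24% to 3.88% for mmu-miR-2861 and 1.54% to 4.06% for mmu-miR-3960.

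After normalization by the vsn model, which brings each array to a common scale close to log2, DoCM5 fell far below the rest. The normalized signal of mmu-miR-2861 was 9.35 on DoCM5, 11.40 on DoCM6, 11.31 on DoCM7, 11.77 on DoCM8, 11.57 on Con1, 11.17 on Con2, 10.90 on Con3 and 11.53 on Con4. For mmu-miR-3960 it was 9.85 on DoCM5, 11.96 on DoCM6, 11.40 on DoCM7, 11.98 on DoCM8, 11.77 on Con1, 11.68 on Con2, 11.41 on Con3 and 11.53 on Con4. On DoCM5 the signal before normalization had been close to that of DoCM7 and Con2 for both names. The other 7 arrays overlapped between the groups.

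Neither miRNA differed between DCM and control beyond the spread between arrays. Over the 7 arrays without DoCM8, the DCM arrays gave 10.69 ± 1.16 (SD, n = 3) for mmu-miR-2861 and the control arrays 11.29 ± 0.32 (SD, n = 4). The difference of -0.60 on the log2 scale (SE 0.49, 95% interval -1.67 to 0.47) did not pass the limit, with p = 0.242 by limma and p = 0.429 by the two-sided exact permutation test, whose smallest possible p is 0.0286. For mmu-miR-3960 the DCM arrays gave 11.07 ± 1.10 (SD, n = 3) and the control arrays 11.60 ± 0.16 (SD, n = 4). Its difference was -0.53 (SE 0.46, 95% interval -1.53 to 0.48, limma p = 0.276, exact permutation p = 0.486). With all 8 arrays the differences were -0.33 (SE 0.47, limma p = 0.492, exact permutation p = 0.800) and -0.30 (SE 0.43, limma p = 0.503, exact permutation p = 0.83).

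The sign of both differences rested on DoCM5. Without DoCM5 and with DoCM8, mmu-miR-2861 was 0.20 higher in DCM (SE 0.25, 95% interval -0.36 to 0.77, limma p = 0.434, exact permutation p = 0.429) and mmu-miR-3960 was 0.18 higher (SE 0.23, 95% interval -0.34 to 0.71, limma p = 0.445, exact permutation p = 0.40). Each column of the slide held 1 array of each group. Within the columns, the DCM array minus the control array was -2.21, 0.23, 0.41 and 0.24 for mmu-miR-2861, and -1.92, 0.28, -0.0048 and 0.45 for mmu-miR-3960. The column of DoCM5 stands first in both series and was the only one with a clearly negative value.

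**Figure D2:**
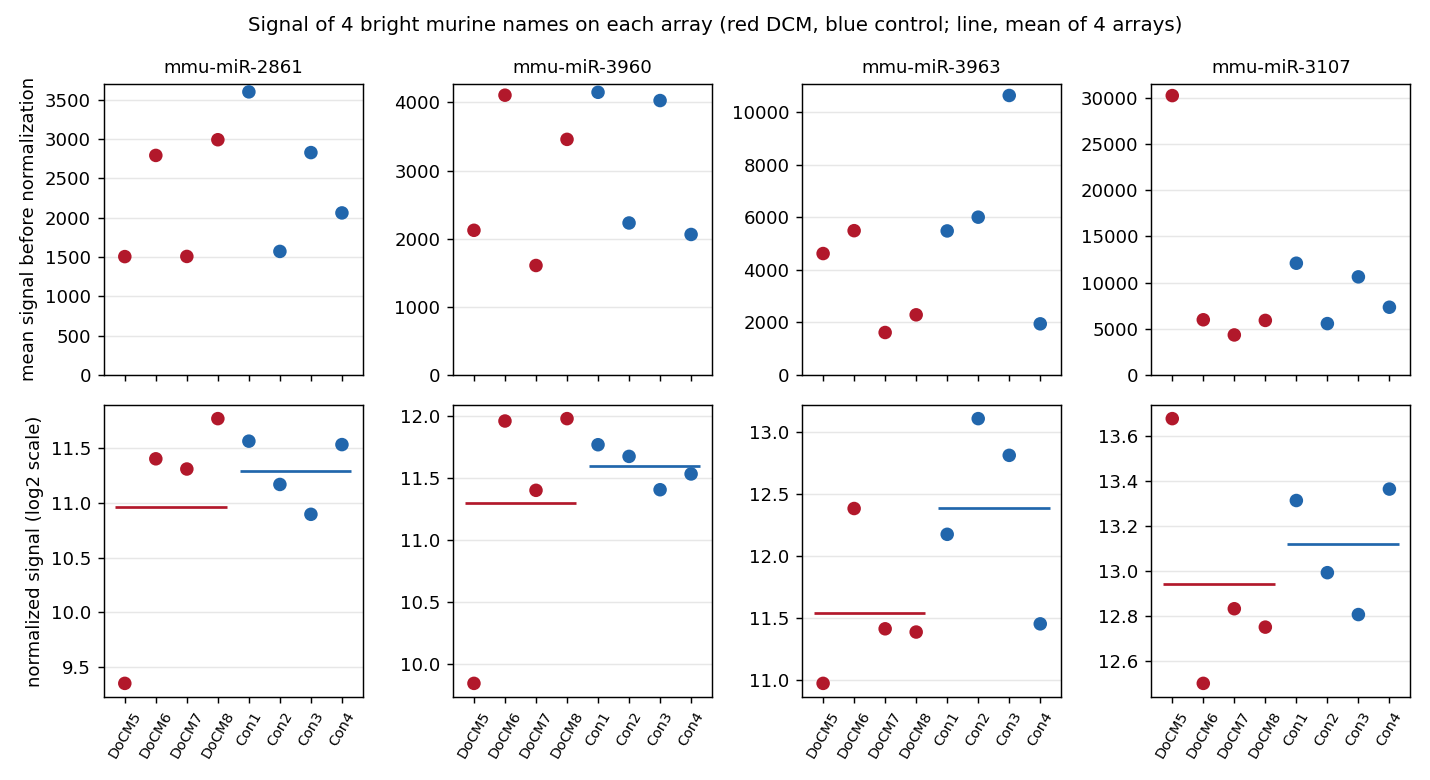
Mean signal before normalization (upper row, linear axis) and normalized signal (lower row, log2 scale) of 4 bright names on each of the 8 arrays, with DCM in red and control in blue and lines at the mean of the 4 arrays of a group. After normalization DoCM5 is lowest for miR-2861, miR-3960 and miR-3963 and highest for miR-3107.

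The pair rose and fell together over the arrays, on the vsn scale mainly through DoCM5. Over all 8 arrays the normalized signals of mmu-miR-2861 and mmu-miR-3960 had a Pearson r of 0.96 (exact permutation p = 0.00699, adjusted p = 0.014 over 2 relations) and a Spearman rho of 0.79 (exact permutation p = 0.0279). Without Con3 and DoCM5, the arrays farthest from the median of mmu-miR-2861, r was 0.49, and without DoCM5 alone it was 0.65 (exact permutation p = 0.115). On the vsn scale the relation therefore rests on few arrays. Without the 2 farthest arrays, r was 0.79 with quantile normalization and 0.73 with normexp. It was 0.25 with 75th percentile scaling over the names detected on every array. Before normalization r was 0.92 over all 8 arrays and 0.87 without the 2 farthest. There, names share much of the brightness of an array, so these 2 values are not particular to the pair. Of 243 other names called on every array, those most like mmu-miR-2861 over the 8 arrays were mmu-miR-3960 (r = 0.96), mmu-miR-5126 (0.95), mmu-miR-3102* (0.94), mmu-miR-680 (0.93) and mmu-miR-705 (0.93). Those most like mmu-miR-3960 were mmu-miR-3102* (0.98), mmu-miR-2861 (0.96), mmu-miR-3072* (0.94), cfa-miR-134 (0.93) and mmu-miR-5126 (0.92). These values describe 8 arrays that share DoCM5 as an extreme, and they carry no test.

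The low normalized level on DoCM5 was shared by most of the later-numbered names. Of the 25 names called on every array, 21 (84.0%) had their lowest normalized signal on DoCM5, against 54.2% of 120 other murine names and 18.2% of 99 canine names. The median of the 25 names, each taken relative to its own median over the 8 arrays, was -1.004 on DoCM5 and between -0.11 and 0.18 on the other 7 arrays. For the canine names the value on DoCM5 was 0.36 and for the other murine names -0.57. Before normalization the canine names stood 1.63 above their medians on DoCM5, the other murine names 0.15 above and the later-numbered names 0.12 below (median -0.12). On the other 7 arrays the 3 classes rose or fell together, apart from values near 0 on DoCM8, from -0.47 on DoCM7 to 0.55 on Con3 for the later-numbered names. DoCM5 was thus the only array on which the canine names were much brighter and the later-numbered names were not. The vsn scale factor, which shrinks a bright array, was 0.433 on DoCM5 and between 0.675 and 1.69 on the other arrays. Features well above background had a median signal of 65.4 on DoCM5 and of 32.3 to 41.6 elsewhere. The summed signal of the erythrocyte miRNAs before normalization was also highest on DoCM5. After normalization, cfa-miR-451 and mmu-miR-486* of that list were lowest on DoCM5 and cfa-miR-16 was highest there. The normalized signal of cfa-miR-451 was 16.5 on DoCM5 and 16.7 to 17.2 elsewhere. The part of these miRNAs in the low level on DoCM5 was not tested.

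**Figure D3:**
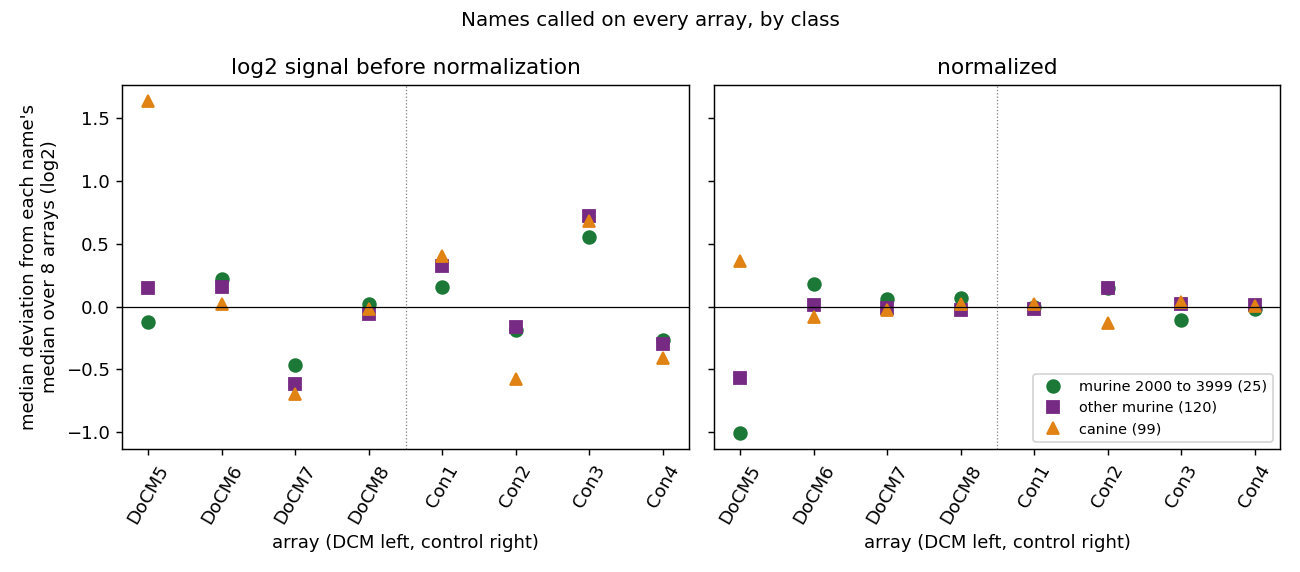
Median deviation of the names called on every array from their own median over 8 arrays (log2), before normalization (left) and after it (right), for 25 later-numbered murine, 120 other murine and 99 canine names. On DoCM5 the canine names stand at 1.63 before normalization and the later-numbered names at -0.12, and after normalization the later-numbered names stand at -1.004.

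miR-3107 was the exception. It had the brightest signal relative to background of these names, at 664 to 3731 times the lowest signal well above background on the same array, and it was the only one of the 25 with its highest normalized signal on DoCM5. The signal of mmu-miR-3107 was 30241 on DoCM5, 5964 on DoCM6, 4321 on DoCM7, 5895 on DoCM8, 12088 on Con1, 5550 on Con2, 10612 on Con3 and 7322 on Con4. DoCM5 was high and the other DCM arrays lay near or below the lowest controls. The normalized signal was 13.68, 12.50, 12.83 and 12.75 on DoCM5 to DoCM8 and 13.31, 12.99, 12.81 and 13.36 on Con1 to Con4, and the groups overlapped. The difference was -0.12 over 7 arrays (SE 0.37, 95% interval -0.92 to 0.69, limma p = 0.758), -0.18 over 8 arrays (SE 0.31, limma p = 0.580) and -0.43 without DoCM5 (SE 0.23, limma p = 0.0953, exact permutation p = 0.0857). Its mature strand has the sequence of miR-486, so that the probes cannot tell the copies apart.

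The opposite arm, mmu-miR-3107*, was also called on all 8 arrays. Its normalized signal was 7.11, 7.03, 7.37 and 7.23 on DoCM5 to DoCM8 and 7.35, 7.42, 7.28 and 8.03 on Con1 to Con4. Con4 was high, the remaining arrays lay close together, and the difference of -0.35 over 7 arrays (SE 0.33, limma p = 0.309, exact permutation p = 0.200) did not pass the limit, and it was -0.34 over 8 arrays (SE 0.27, limma p = 0.244, exact permutation p = 0.0857) and -0.31 without DoCM5 and with DoCM8. mmu-miR-486*, listed for the other strand of the locus, was likewise called on all 8 arrays, at 7.34 to 8.24. The normalized signals of mmu-miR-3107 and mmu-miR-3107* had a Pearson r of 0.34 (exact permutation p = 0.432, adjusted p = 0.432 over 2 relations) and a Spearman rho of 0.43 (exact permutation p = 0.299) over the 8 arrays. Without Con4 and DoCM5, the arrays farthest from the median of mmu-miR-3107, r was 0.76, and without DoCM5 alone it was 0.80 (exact permutation p = 0.0145). With the median over features, r was -0.31 without Con4 and DoCM5. With quantile normalization and with normexp it was 0.24 without Con2 and Con3, the farthest arrays there. Over all 8 arrays r was 0.94 before normalization (exact permutation p = 0.00017). It was 0.85 over the same arrays with 75th percentile scaling over all names (exact permutation p = 0.0027), so that the relation depended on the scaling. Before normalization, names share much of the brightness of an array, so that value and its p are not particular to the 2 arms.

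The other hairpins that lie opposite a known miRNA gave little signal. mmu-miR-3074-5p was detected through 2 features and called on no array, and both mmu-miR-3074-1-3p and mmu-miR-3074-2-3p were without a kept feature. None of the kept features of mmu-miR-3074-5p was well above background on a DCM array, and no fold change could be bounded. mmu-miR-24, from the facing strand, had all 40 features well above background on every array, at a normalized signal of 9.84 to 10.56. The dog listing cfa-miR-24 was dim, at 2.85 to 3.13. It was called on 7 arrays, with 18 to 40 features well above background. At the miR-338 locus the picture was the other way round. mmu-miR-3065* was called on all 8 arrays with 26 to 40 features well above background, while cfa-miR-338, mmu-miR-338-3p and mmu-miR-338-5p were not detected. mmu-miR-3065* was dim, at 8.64, 13.7, 7.88 and 10.3 on DoCM5 to DoCM8 and at 15.0, 9.96, 13.8 and 8.45 on Con1 to Con4 before normalization. Con1, Con3 and DoCM6 were high and the groups overlapped.

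mmu-miR-3963 had the most negative difference of the 41 names. Its signal was 4622 on DoCM5, 5493 on DoCM6, 1613 on DoCM7, 2287 on DoCM8, 5483 on Con1, 6007 on Con2, 10644 on Con3 and 1943 on Con4. The normalized signal was 10.97, 12.38, 11.41 and 11.38 on DoCM5 to DoCM8 and 12.17, 13.11, 12.81 and 11.45 on Con1 to Con4. DoCM6 lay among the controls and Con4 among the DCM arrays. Over 7 arrays the difference was -0.80 (SE 0.47, 95% interval -1.83 to 0.23, limma p = 0.117, exact permutation p = 0.200). It was -0.85 over 8 arrays (SE 0.41, limma p = 0.0623, adjusted p = 0.956, exact permutation p = 0.143) and -0.66 without DoCM5 (SE 0.43, limma p = 0.158, exact permutation p = 0.229), lower in DCM in each case and past the limits in none of the 3. Over 7 arrays it passed when DoCM6 (-1.20) or Con4 (-1.11) was left out. It also passed with the slide column as a block, over 7 arrays and over all 8, where the limma p was 0.0301 at the same difference of -0.85, and with array weights over all 8. The DCM array minus the control array of the same column was -1.20, -0.73, -1.40 and -0.07.

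Further bright names followed miR-2861 in their low normalized level on DoCM5. The normalized signal of mmu-miR-2137 was 7.96 on DoCM5 and 8.59 to 9.76 on the other arrays. mmu-miR-3072*, from the Dlk1-Dio3 region, was at 6.78 on DoCM5 and at 8.21 to 8.81 elsewhere. mmu-miR-3102-5p.2 was at 6.35 on DoCM5 and at 7.14 to 8.12 elsewhere, and mmu-miR-3102*, from the same hairpin, at 4.96 against 6.15 to 6.91. mmu-miR-3067* was at 6.83 on DoCM5 and at 7.40 to 8.29 elsewhere, and mmu-miR-3098-5p at 5.16 against 6.28 to 7.08. mmu-miR-3968 did not follow them, with its lowest value of 5.82 on DoCM6 and its highest of 7.61 on Con2. Over 7 arrays the differences were -0.58 for mmu-miR-2137 (SE 0.39), -0.60 for mmu-miR-3072* (SE 0.45), -0.59 for mmu-miR-3102-5p.2 (SE 0.39) and -0.55 for mmu-miR-3968 (SE 0.39), with limma p-values of 0.161, 0.209, 0.158 and 0.184. Over 8 arrays they were -0.38, -0.51, -0.56 and -0.55 in the same order, and without DoCM5 and with DoCM8 they were -0.12, -0.094, -0.33 and -0.58, so that the first 3 were nearer to 0 and mmu-miR-3968 was not.

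The names with the largest spread over the 8 arrays after normalization were mmu-miR-3106 (SD 0.89), mmu-miR-3963 (SD 0.77), mmu-miR-3099 (SD 0.77), mmu-miR-2861 (SD 0.76) and mmu-miR-3095-3p (SD 0.75), among the 25 called on every array. mmu-miR-3106 owed its spread to DoCM7 as well as DoCM5. Its signal before normalization was 125 on DoCM7 and 54.0 to 65.2 on the other 7 arrays. mmu-miR-3095-3p had its highest signals on DoCM6 (503) and Con3 (481), with 104 to 231 on the other arrays.

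Some names gave nearly the same signal on every array, whatever its brightness. mmu-miR-3070a read 38.1, 43.2, 41.9 and 40.7 on DoCM5 to DoCM8 and 42.8, 41.4, 45.0 and 38.9 on Con1 to Con4, so that the highest array exceeded the lowest only 1.18-fold. mmu-miR-3085-3p (1.31-fold) and mmu-miR-3092 (1.37-fold) varied as little, close to the background limit. mmu-miR-3099 varied 1.64-fold, from 55.3 on Con1 to 90.7 on DoCM8. In all, 3 of the 25 names called on every array (12%) varied less than 1.5-fold, compared with 6 of 120 other murine names (5.0%) and none of 99 canine names. The median of the highest over the lowest array was 2.49-fold in the later-numbered names, 4.16-fold in the other murine names and 6.18-fold in the canine names. After normalization such flat names varied with the scale factor of the array, and mmu-miR-3070a ran from 4.22 on DoCM5 to 6.09 on DoCM7.

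In the comparison of DCM with control, 2 of the 41 detected names passed both limits (limma p under 0.05 and a fold change over 1.5) over the 7 arrays. Of all 438 detected names, 11 passed (2.51%), and 0 of the 438 passed after Benjamini-Hochberg adjustment (smallest limma adjusted p = 0.988), with 11 at an unadjusted p under 0.05. Both names were higher in DCM, a direction in which 1.37% of the 438 passed. Nothing is read from that direction, since the single kept feature of mmu-miR-3104-3p and 2 of the 3 kept features of mmu-miR-3472 had passed the filter through DCM arrays alone. With all 8 arrays 1 of the 41 passed, against 18 of 438 (4.11%), and without DoCM5 1 of 41, against 26 of 438 (5.94%). The same 2 names were those whose normalized signals did not overlap between the groups over the 7 arrays, against 4.34% of the 438. Before normalization the signals of their kept features did overlap between the groups over these arrays, for both names. With all 8 arrays 0 of the 41 were free of overlap, against 2.74% of the 438. Leaving out 1 further array of the 7 changed the count of 2 to 4 without DoCM5, 6 without DoCM6, 0 without DoCM7 and 1 without Con1, while the count among all 438 names went from 11 to 28, 31, 13 and 10. It left the count at 2 without Con2, Con3 or Con4, beside 9, 12 and 12 of the 438, although mmu-miR-3963 took the place of mmu-miR-3472 without Con4.

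The first of them, mmu-miR-3104-3p, rested on 1 kept feature of 40. That feature read 3.95, 6.69, 6.73 and 3.84 on DoCM5 to DoCM8 and 3.41, 3.29, 3.49 and 4.02 on Con1 to Con4. It was well above background on DoCM6 and DoCM7 only, and Con4 lay above DoCM5 and DoCM8. The study lists mmu-miR-3104-3p, and no other of these names, as different before adjustment, and higher in DCM. The feature had been kept through the group in which it was high, so that the filter favoured a higher value in DCM. Only the direction of the difference is therefore given, as a description. The normalized signal was higher in DCM over 7 arrays, with all 8 arrays, and without DoCM5 and with DoCM8. It was past the limits in each case, which carries no weight, because the filter had favoured that direction. Without DoCM7 it lost the call. With no filter on features, the difference was -0.20. No control array measured the kept feature above background, and no size is given for its difference. Over all 40 features the mean signal was 2.93, 4.18, 3.25 and 4.53 on DoCM5 to DoCM8 and 3.95, 3.50, 4.29 and 4.38 on Con1 to Con4, and the groups overlapped. The other arm, mmu-miR-3104-5p, was detected through 22 features, and its difference of -0.43 (SE 0.39) did not pass the limits.

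The other, mmu-miR-3472, rested on 3 kept features of 40, of which 1 had passed the filter through control arrays and 2 through DCM arrays. The feature kept through control arrays read 5.68, 5.30, 3.79 and 2.66 on DoCM5 to DoCM8 and 7.68, 4.23, 9.13 and 4.04 on Con1 to Con4. For the other 2 the filter favoured a higher value in DCM, so that the difference is given as a description, without a p-value. Before normalization the mean of the kept features was 4.42, 7.25, 5.47 and 2.53 on DoCM5 to DoCM8. It was 4.27, 3.79, 7.45 and 2.82 on Con1 to Con4, with Con3 the highest of all arrays. The normalized signal of mmu-miR-3472 was 2.30, 2.62, 2.87 and 1.45 on DoCM5 to DoCM8 and 1.60, 1.90, 2.12 and 1.60 on Con1 to Con4. DoCM8 was the lowest of all 8 arrays. The difference was 0.79 over 7 arrays (SE 0.32). It was past the limits before adjustment only, which carries no weight, because the filter favoured DCM for 2 of the 3 kept features. It was 0.51 with all 8 arrays (SE 0.34) and again 0.51 without DoCM5 and with DoCM8 (SE 0.35), past the limits in neither. With the slide column as a block over 7 arrays it was 0.72 and no longer past the limits. Over 7 arrays the call was also lost when DoCM6 (0.78), DoCM7 (0.65), Con1 (0.72) or Con4 (0.72) was left out. Counted over all 40 features, 22 were well above background on DoCM6, 24 on Con3, 3 on DoCM7, 2 on Con1 and 0 on the other 4 arrays. The 2 arrays with the most such features thus came from opposite groups.

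As a group, the 41 names leaned towards lower values in DCM over the 7 arrays, and this turned when DoCM5 was left out or the arrays were weighted. Their median difference over 7 arrays was -0.12, with 26 of 41 below 0, beside a median of 0.0031 with 49.5% of all 438 names below 0. Over 8 arrays the median was -0.08, with 25 of 41 below 0 beside 50% of all 438. Without DoCM5 the median was 0.19, with 14 of 41 below 0, while 49.8% of all names were below 0. With array weights over all 8 arrays the median was 0.079 and 15 of 41 were below 0, beside 48.6% of all names. With 75th percentile scaling over the names detected on every array, 35 of 41 were below 0 beside 66.2% of all names, and with that scaling over all names 19 of 41 beside 37.2%. Both scalings moved all names alike, and the median of the 41 stayed 0.10 below that of all names under each, compared with 0.12 below over the 7 arrays. With normexp the 41 lay 0.012 below all names. Among the 25 names called on every array, 20 were below 0 over 7 arrays and 8 without DoCM5, beside 55.7% and 48.0% of all 244 names called on every array. None of the 25 passed the limits over 7 arrays, over all 8 or without DoCM5, where 2.05%, 3.28% and 3.69% of the 244 did. The differences of the 25 ranged from -0.80 to 0.40 over 7 arrays.

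**Figure D4:**
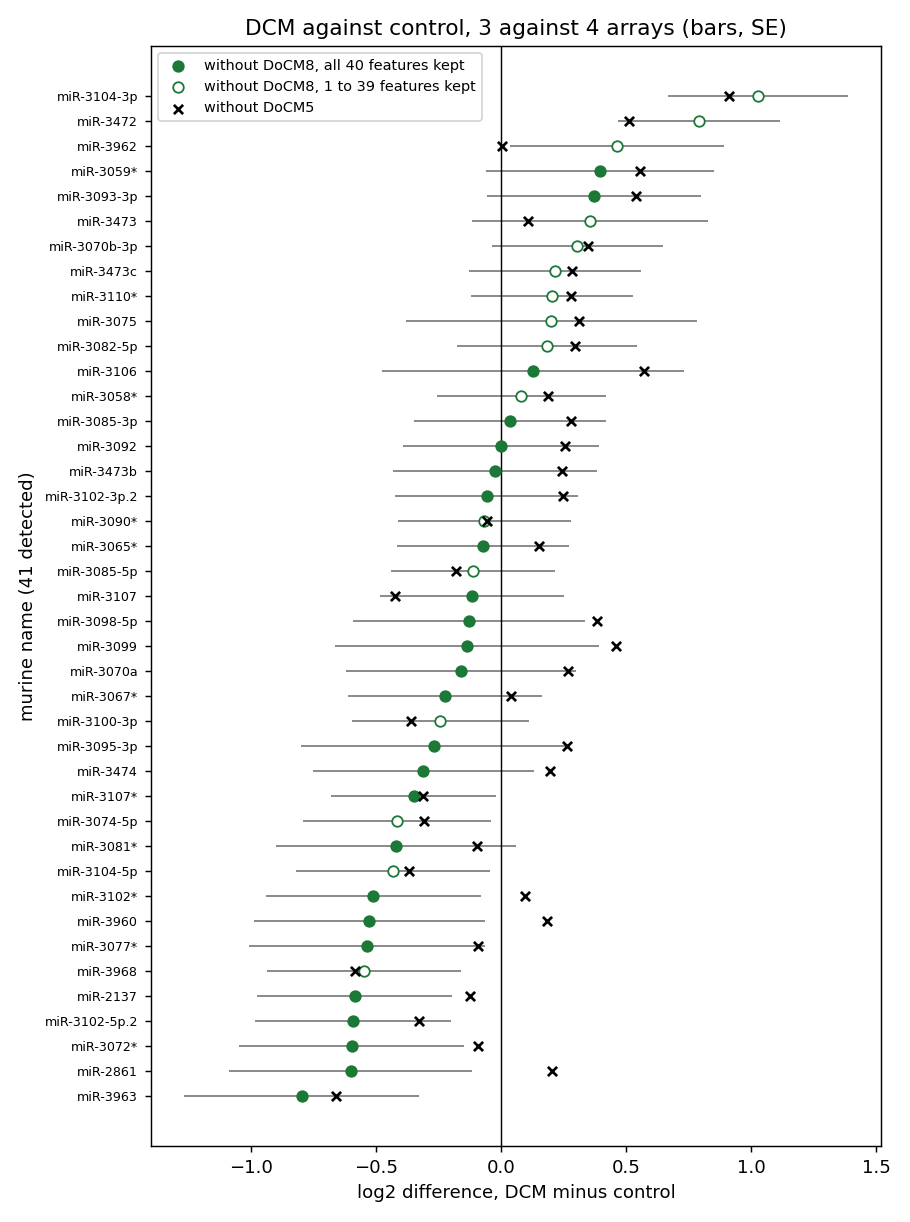
Difference between DCM and control (log2) for the 41 detected names over the 7 arrays without DoCM8 (circles with SE, filled where all 40 features were kept) and over the 7 arrays without DoCM5 (crosses). Only miR-3104-3p and miR-3472, both with open circles, passed both limits, and for miR-2861 and miR-3960 the crosses lie on the other side of 0. Kept features of miR-3104-3p and miR-3472 had passed the filter through DCM arrays, so nothing is read from their plotted sizes.

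The 2 or 3 probes of a name did not always agree. For 9 of the 41 detected names at least 1 probe had no kept feature. mmu-miR-3968 was the extreme case, with a mean signal over the arrays of 117 for one probe and 2.05 for the other. Among the 25 names called on every array, 6 had probes that differed more than 2-fold in mean signal, including mmu-miR-3077* (8.43-fold), mmu-miR-2137 (3.99-fold), mmu-miR-3107* (3.42-fold) and mmu-miR-3963 (2.92-fold). The probes of mmu-miR-2861 differed 1.02-fold and those of mmu-miR-3960 1.12-fold. Over the 8 arrays the probes of one name followed each other with a median r of 0.98, and the lowest r was 0.38, for mmu-miR-3093-3p.

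Lists of miRNAs that mark other sources of serum RNA were examined beside these results. All 7 erythrocyte listings were detected. Their summed signal before normalization was 93261 to 248079 in DCM, highest on DoCM5, and 88352 to 179608 in control. Over 7 arrays 2 of the 7, mmu-miR-144 and mmu-miR-144*, were past the limits and higher in DCM, beside 2.51% of all 438 names. The third miR-144 listing, cfa-miR-144, did not pass there (0.60). Nor did cfa-miR-451 (-0.016), cfa-miR-16 (0.025), mmu-miR-486* (-0.31) and cfa-miR-185 (0.27). Over 8 arrays 3 of the 7 passed, beside 4.11% of all 438. Of the 8 leukocyte listings 1 passed over 7 arrays and 1 over 8, mmu-miR-142-3p in both cases, higher in DCM. Over 7 arrays cfa-miR-223 and mmu-miR-223 were at -0.35 and -0.43, neither past the limits. The rest of that list ranged from -0.0084 to 0.43. Of the 5 platelet and endothelial ones none passed in either. The summed signal of the platelet and endothelial list was 3422 on DoCM5 and 416 to 1020 on the other arrays. The heart list had 3 of 6 listings detected, and its heart-specific members miR-208a and miR-208b were not. cfa-miR-499 and cfa-miR-133b, also from that list, were called on all 8 arrays, with differences over 7 arrays of 0.61 and -0.41, neither past the limits. Over 8 arrays these were 0.69 and -0.44. The 1 liver listing, cfa-miR-122, was called on all 8 arrays. Its difference was -0.76 over 7 arrays and -0.69 over 8, and it did not pass the limits. The part of these sources in the results was not tested.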

How the data were processed

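Serum RNA of 4 dogs with DCM and 4 healthy dogs was measured on 8 one-colour arrays. The authors extracted the signals with Agilent Feature Extraction 10.7.3.1, as the submitters' processing notes name it. The deposited values are feature intensities, from which the authors had subtracted the background without normalizing between arrays. The deposited value table held the same values. Groups were taken from the labels. Names and lists were chosen with earlier results of these data known.

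Control features were dropped, and where the software marked a feature as an outlier it did not enter that array's mean. A feature was kept when well above background in at least 2 of 4 arrays of a group. The mean signal per name was normalized by an own implementation of the vsn model over all 8 arrays (least trimmed squares quantile 0.9, 5 slices, 7 iterations). All 438 detected names were tested with limma 3.58.1 in R 4.3.3 over 7 arrays. The array labelled DoCM8, the sample name that the study left out, was not among them. Permutation tests were exact and two-sided, computed with scipy 1.17.1, numpy 2.4.6 and pandas 2.3.3. Figures were drawn with matplotlib 3.10.9. No array gives counts, so the number of arrays limits the precision.

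Named were miR-2861 and miR-3960, names past both limits, the 12 with the highest mean signal, names without overlap of the groups, those opposite a known miRNA, the names most like miR-2861 and miR-3960, and the 5 with the largest SD. Further names were chosen after their values were seen, to show flat signals (mmu-miR-3070a, mmu-miR-3085-3p, mmu-miR-3092), arms and probes (mmu-miR-3071, mmu-miR-3072, mmu-miR-3070b-3p, mmu-miR-3104-5p, mmu-miR-3077*, mmu-miR-3093-3p) and lone or rare features. Tested on simulated data for 3 DCM against 4 control arrays with 438 names, 95% of 60 names changed by 2 on the log2 scale passed both limits, 56.7% of those changed by 1, and 23 unchanged names also passed. Sequences of the names were not used here.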

Additional observations from a re-analysis of the deposited data

Results flagged for a closer look

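A single feature of mmu-miR-3084*, a name without a kept feature, read 5591 on the array labelled DoCM6, a signal outside the comparisons above. The other 39 features of the name had a median of -0.28 and a highest value of 3.33 on that array, and the same feature read at most 0.50 on the other arrays. The scanner software had flagged it as an outlier. Lone features of this kind were also present on a control array, Con1, for mmu-miR-3964 (27872) and mmu-miR-3073-3p (162), both with the same flag. Dixon's criterion, by which chance marks about 1 in 20 groups, was applied to 74 groups of 4 arrays, the normalized signals of the named miRNAs, their signals before normalization and the number called. It marked 5, all of them signals before normalization. On DoCM5, mmu-miR-3107 read 30241 against 4321 to 5964 on the other DCM arrays, and mmu-miR-3968 read 211 against 59.9 to 78.1. On DoCM7, mmu-miR-2137 read 241 against 525 to 569.7, and mmu-miR-3106 read 125 against 54.0 to 59.2. On Con3, mmu-miR-3106 read 65.2 against 58.7 to 59.5 on the other control arrays.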

How the results depend on the processing

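The 41 detected names became 110 when 1 array of a group sufficed, 33 when all arrays of a group were required, 33 when at least 50% of the features had to be kept, and 39 to 41 in the fits that each dropped 1 array. The median number called per array was 28 in DCM and 29.5 in control, 46.5 and 57.5 when 1 feature sufficed, 22.5 and 20.5 when all features were required, and 30 and 29.5 when outlier features were counted. The count of 2 names past both limits, beside 11 of all 438, was 1 with all 8 arrays (mmu-miR-3104-3p, 18 of 438), 1 without DoCM5 in place of DoCM8 (mmu-miR-3104-3p, 26 of 438), 1 with 75th percentile scaling over all names (mmu-miR-3074-5p, 11 of 438), 1 with features well above background in all arrays of a group (mmu-miR-3473c, 10 of 364) and 6 with no filter (41 of 1224). Those 6 did not include mmu-miR-3104-3p or mmu-miR-3472. It was 3 with the median over features, which added mmu-miR-3077* (14 of 438). It was 0 with 75th percentile scaling over the names detected on every array (13 of 438), with quantile normalization (12 of 438), with normexp (2 of 438) and when at least 50% of the features had to be kept (6 of 349). The 2 names were mmu-miR-2136 and mmu-miR-3101* when 1 array of a group sufficed (26 of 987), and mmu-miR-3104-3p and mmu-miR-3963 with the slide column as a block (12 of 438, 18 over 8 arrays) and with array weights (34 of 438). Dropping 1 array at a time, it ranged from 0 to 6, beside 9 to 31 of 438. The relation of mmu-miR-2861 and mmu-miR-3960 fell to r = 0.65 without DoCM5 and kept its side of the limit under the other scalings.

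Some differences changed sign. Without DoCM5 in place of DoCM8 they became 0.20 for mmu-miR-2861, 0.18 for mmu-miR-3960, 0.26 for mmu-miR-3095-3p, 0.039 for mmu-miR-3067*, 0.38 for mmu-miR-3098-5p, 0.15 for mmu-miR-3065* and 0.46 for mmu-miR-3099. With array weights over all 8 arrays they became 0.20 for mmu-miR-2861, 0.16 for mmu-miR-3960, 0.013 for mmu-miR-2137, 0.079 for mmu-miR-3095-3p, 0.037 for mmu-miR-3067*, 0.29 for mmu-miR-3098-5p, 0.095 for mmu-miR-3065* and 0.62 for mmu-miR-3099. Scaling by the 75th percentile over all names, which moved the median of all names to 0.11, gave 0.25 for mmu-miR-3107, 0.079 for mmu-miR-3095-3p, 0.13 for mmu-miR-3067*, 0.0061 for mmu-miR-3107*, 0.19 for mmu-miR-3098-5p and 0.17 for mmu-miR-3099. Scaling over the names detected on every array moved that median to -0.21. mmu-miR-3107 was 0.34 with quantile normalization and 0.33 with normexp, where mmu-miR-3099 was 0.0016. When 1 array of a group sufficed, mmu-miR-3104-3p was -0.061, mmu-miR-3107 0.12, mmu-miR-3098-5p 0.067 and mmu-miR-3099 0.046. With no filter they were -0.20, 0.11, 0.046 and 0.026. mmu-miR-3065* was 0.12 when all arrays of a group were required and 0.0096 when at least 50% of the features were. mmu-miR-3099 was 0.019 with all 8 arrays, 0.080 with the slide column as a block and 0.019 with both.

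Over the fits that each drop 1 array, the ranges were -0.96 to 0.066 for mmu-miR-2861, -0.97 to 0.085 for mmu-miR-3960, -0.45 to 0.14 for mmu-miR-3107, -0.96 to 0.35 for mmu-miR-3095-3p, -0.46 to 0.14 for mmu-miR-3067*, -0.46 to 0.50 for mmu-miR-3098-5p, -0.24 to 0.20 for mmu-miR-3065*, -0.69 to 0.82 for mmu-miR-3106 and -0.68 to 0.45 for mmu-miR-3099. The cause of these changes was not tested, apart from the fewer arrays or features that a setting leaves. Of the other comparisons with an alternative, not all of them of a named difference, 365 kept direction and side of the limit, 21 lost the call and 8 gained it. The vsn fit over 7 arrays, the block over 8 arrays, the filter without flagged calls, the calls with outlier features and the signal before normalization were chosen after seeing the data. No paired analysis was possible because control and DCM arrays carry different numbers in the labels, and the slide column stood in as the block. Names near the background limit carry little signal, and the groups of 3 and 4 dogs limit all comparisons.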
